A study of Mus musculus with 2 samples.

Results

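The Nodal and activin branch of the TGF-beta superfamily was examined through 10 genes, picked by name as its ligands, receptors and antagonists. They are the ligand genes Nodal, Gdf3, Inhba and Inhbb, the receptor gene Acvr2b, the co-receptor gene Tdgf1 and the antagonist genes Lefty1, Lefty2, Cer1 and Fst. The 10 genes are represented by 18 probe sets, each a group of short oligonucleotides read out as 1 signal, among 18193 genes that the platform annotation names through a probe set with a single gene symbol. RNA from mouse embryonic stem (ES) cells was hybridized to Affymetrix MOE430 2.0 arrays, 1 for control cells and 1 for cells with a constitutive knockout of Eed (Eed KO), a core subunit of the Polycomb repressive complex PRC2. The study set this knockout beside those of other Polycomb proteins, which are not analysed here. For both groups, strain, passage, culture medium, feeder layer and the kind of Eed allele are not given in the sources used here, nor is whether the knockout line is a single clone. With 1 array in each group no difference has a replicate check. All values below describe these 2 arrays, and their number limits the precision.

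Nodal, activins and GDF3 are secreted as dimers and signal through type II receptors, such as ACVR2B and ACVR2A, and type I receptors, such as ACVR1B, which phosphorylate SMAD2 and SMAD3. Nodal and GDF3 also need a co-receptor of the EGF-CFC family, such as Cripto, the product of Tdgf1. Lefty proteins and Cerberus block Nodal signalling, and follistatin binds activins. The Lefty genes are themselves targets of Nodal signalling, and the pathway is active in mouse ES cells and in the early epiblast, where it patterns mesoderm and endoderm.

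The clearest difference among the 10 genes lay in 2 of the 4 antagonist genes and in the gene of the activin A subunit. Lefty2, Fst and Inhba were 4.04-, 3.54- and 2.90-fold higher in the Eed KO array, whereas Gdf3 and Acvr2b were 2.04- and 2.11-fold lower. Nodal, Tdgf1, Lefty1 and Inhbb stayed within 2-fold, and Cer1 was not measurable on either array. A signal of 61.3 served as a floor, set so that 40% of the signals of both arrays, control probe sets left out, lay under it: values under it were set to it, and a gene counted as measured when above it on at least 1 array. Of the 9 measured members, all of them above the floor on both arrays, 3 were higher and 2 lower in the knockout by 2-fold or more. The same held for 10.8% (higher) and 3.27% (lower) of all 13794 measured genes, and for 9.89% and 3.39% of the 11815 genes that, like the 9 members, exceeded the floor on both arrays. The median log2 ratio of the 9 members was 0.04, against 0.12 over all measured genes, as the members went in both directions. The 10 genes were proposed with earlier results of these arrays known, so their counts are not independent of them.

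**Figure D1:**
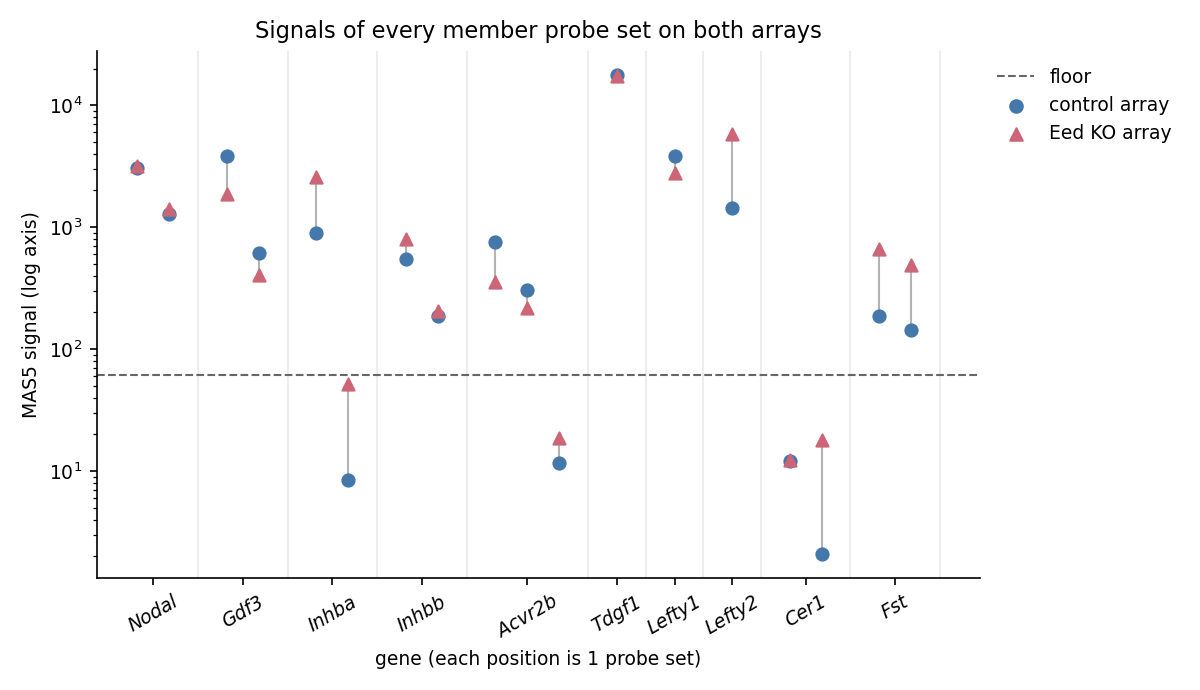
Deposited MAS5 signal (log axis) of each of the 18 member probe sets on the control array (circles) and on the Eed KO array (triangles), with the floor of 61.3 dashed. Lefty2, the brighter Inhba probe set and both Fst probe sets read higher in the Eed KO, those of Gdf3 and the 2 brighter ones of Acvr2b read lower, and both Cer1 probe sets lie under the floor.

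Lefty2, which encodes a secreted inhibitor of Nodal, read 1449.5 on the control array and 5857 on the knockout array on its single probe set, a log2 ratio of 2.01. Of the 13794 measured genes 214 had a higher ratio. Counted over the 2397 genes whose mean signal lay within 2-fold of its own, 13 had a ratio at least as high, Lefty2 included, which is 0.542%. The one repeated measurement that a pair of arrays offers is that of a gene by its different probe sets. The SD of a log2 ratio between probe sets of a gene was 0.20 at signals above 2048, so the Lefty2 ratio was 10.1 times that SD, which covers technical and isoform spread and not the spread between cultures.

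Lefty1 is the closest relative of Lefty2, and its protein has the same inhibitory role. Its single probe set went the other way, from 3844 to 2781, a log2 ratio of -0.47. That is 2.34 times the probe set SD and under 2-fold. The sign was negative under all 10 other settings of scaling, floor and probe set choice, with values from -0.77 to -0.37. With a single probe set far above every floor, the settings of floor and probe set choice could not move the ratio. The pseudocount, added alike to both arrays, could shrink the ratio but not turn its sign. Only the scalings put the sign to the test. The log2 ratio of Lefty2 exceeded that of Lefty1 by 2.48, or 5.58-fold, beside an SD of such a difference between probe sets of 0.28. This gap does not depend on any factor that scales a whole array. Neither probe set carries the platform's suffix for probes shared with other transcripts. The probe sequences were not used here, so cross-hybridization between the 2 related transcripts was not tested.

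Follistatin, the activin-binding protein encoded by Fst, was read by 2 probe sets that gave nearly the same answer. The brighter read 187.9 in control cells and 664.6 in knockout cells, and the other 143.8 and 492.1. Their log2 ratios were 1.82 and 1.77, and both signals lay above the floor on both arrays. The probe set SD at that signal was 0.38. Of the 4189 genes of similar mean signal, 140 (3.34%) had a ratio at least as high as the brighter probe set.

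Cer1 encodes Cerberus, which binds and blocks Nodal. Its probe sets read 12 and 12.4, and 2.1 and 18.1, in control and knockout cells, all under the floor. No ratio is given, and whether the gene differed was not detectable at these signals. The antagonists thus comprised 2 genes that were at least 2-fold higher, 1 with a ratio below 1 and 1 without a measurable signal.

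**Figure D2:**
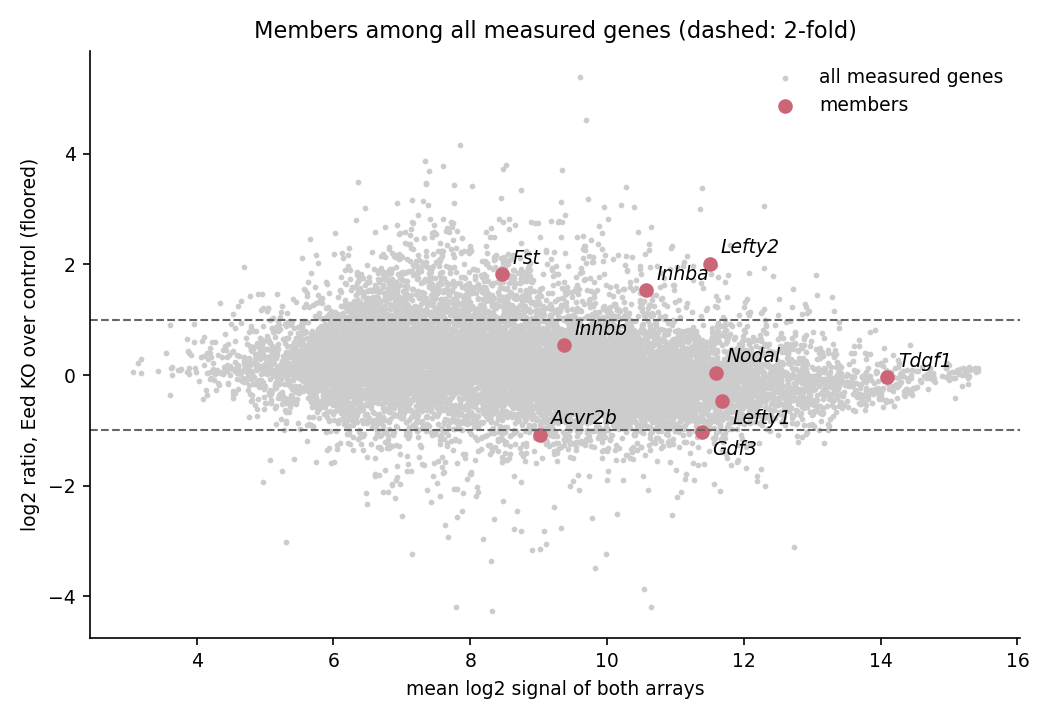
Log2 ratio of Eed KO over control (floored signals, vertical axis) against the mean log2 signal of both arrays (horizontal axis) for all 13794 measured genes (grey) and the 9 measured members (red), with 2-fold as dashed lines. Lefty2 (2.01) stands near the upper edge of genes of its brightness, while Nodal (0.04) and Tdgf1 (-0.04) lie near the middle of theirs.

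Among the 4 ligand genes of the set, Inhba, which encodes the beta A subunit shared by activin A and inhibin A, was the only one at least 2-fold higher. The brighter of its probe sets gave 889.1 in control cells and 2579 in knockout cells, a log2 ratio of 1.54, and 86 of the 3586 genes of similar signal (2.40%) had a ratio at least as high. The second Inhba probe set, at 8.4 and 52.1, did not reach the floor and adds no ratio. Inhbb, the beta B subunit gene of activin B, read 546.3 and 796.7 on its brighter probe set and 188 and 204.9 on the other. Its log2 ratios of 0.54 and 0.12 were both positive and both under 2-fold. The log2 ratio of Inhba exceeded that of Inhbb by 0.99, beside an SD of the difference of 0.39. Inhba and its antagonist gene Fst differed in log2 ratio by 0.29, which is less than the SD of 0.44 for that pair.

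Nodal itself differed little. Its probe sets read 3051 and 3147, and 1285 and 1408, in control and knockout cells. The log2 ratios were 0.04 and 0.13, and the sign of the first turned under 3 scalings, down to -0.26 when the array medians were made equal. Gdf3, which encodes a ligand expressed in pluripotent cells, was lower on both of its probe sets. The brighter read 3821 in control cells and 1869 in knockout cells, a log2 ratio of -1.03, and the other 618.2 and 406.1, a log2 ratio of -0.61. Of 2576 genes of similar signal, 93 (3.61%) had a ratio at least as low as the brighter probe set. Gdf3 lies just past the 2-fold line: it was under it with quantile normalization (-0.96), with the intensity trend removed (-0.95) and when both probe sets were averaged (-0.82). The log2 ratio of Nodal exceeded that of Gdf3 by 1.08, beside an SD of 0.28.

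Acvr2b, the gene of a type II receptor that binds activins and Nodal, was lower in the Eed KO. Its brightest probe set read 756.4 in control cells and 358.1 in knockout cells, a log2 ratio of -1.08. The next read 305.5 and 218.2, a log2 ratio of -0.49, and the last, at 11.6 and 18.8, did not reach the floor. Both measured probe sets were lower in the Eed KO, but they differed in size, and their mean of -0.78 was under 2-fold, as was the value with a pseudocount (-0.96). Gdf3 (2.04-fold lower) and Acvr2b (2.11-fold lower) were thus the members just past the 2-fold line, and the nearest members short of it were Inhbb (1.46-fold higher) and Lefty1 (1.38-fold lower). Tdgf1, the Cripto co-receptor gene, read 17800.5 and 17315 on its single probe set. Its log2 ratio of -0.04 turned positive under 2 settings, up to 0.09.

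**Figure D3:**
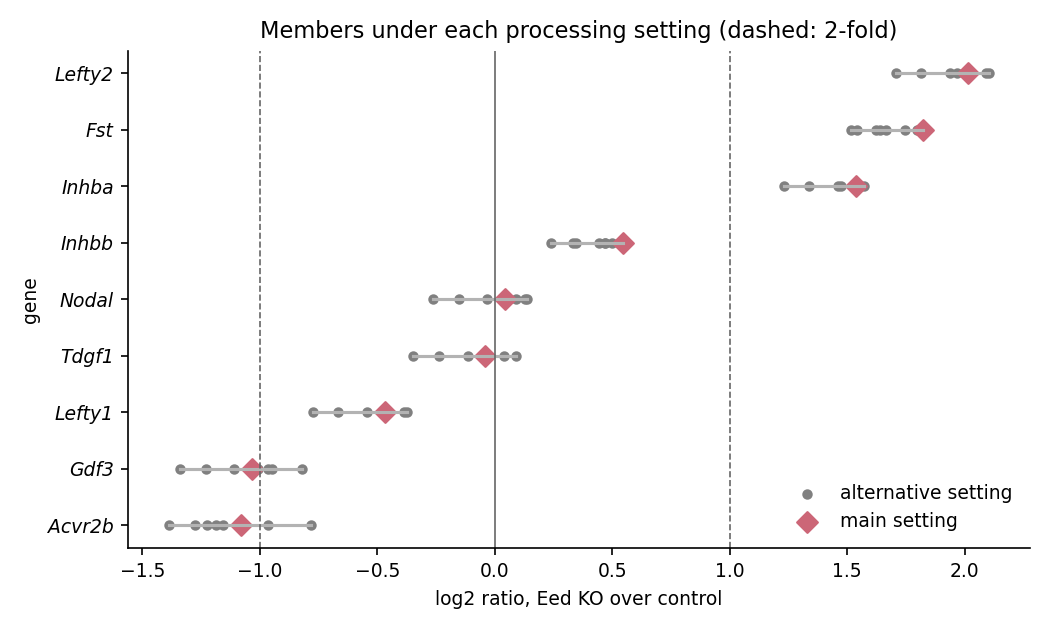
Log2 ratio of Eed KO over control for the 9 measured members with the main setting (diamonds) and with each of 10 alternative settings (grey points, joined by a line), with 2-fold dashed. Lefty2, Fst and Inhba stay above 2-fold throughout, Acvr2b and Gdf3 straddle it, and Nodal and Tdgf1 straddle 0.

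PRC2 binds preferentially at promoters rich in CpG dinucleotides, and the promoter sequences of the members are therefore described. Whether CpG content has a part in the members' ratios was not tested. The RefSeq promoter table (GRCm38.p6) held 6 of the 10 members, Nodal, Inhba, Inhbb, Acvr2b, Tdgf1 and Cer1, and of the members that differed by 2-fold it held Inhba and Acvr2b. The 250 bases before their listed starts are printed on the gene's strand with each CpG in capitals. They are Inhba at chr13:16011601-16011850 and Acvr2b at chr9:119401928-119402177, both on the plus strand of GRCm38.p6.
Inhba: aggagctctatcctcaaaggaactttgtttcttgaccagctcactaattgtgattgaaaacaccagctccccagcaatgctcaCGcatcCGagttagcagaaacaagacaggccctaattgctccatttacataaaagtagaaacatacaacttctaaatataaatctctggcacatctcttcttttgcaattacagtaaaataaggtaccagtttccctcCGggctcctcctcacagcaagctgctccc
Acvr2b: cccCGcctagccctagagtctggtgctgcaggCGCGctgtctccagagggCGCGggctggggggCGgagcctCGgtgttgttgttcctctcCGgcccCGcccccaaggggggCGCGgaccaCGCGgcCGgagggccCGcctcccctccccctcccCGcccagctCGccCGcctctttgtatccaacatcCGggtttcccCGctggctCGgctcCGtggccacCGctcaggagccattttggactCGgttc
The Inhba sequence, of the member that was higher in the Eed KO, held 3 CpG and was 43.2% G and C. The Acvr2b sequence, of the member that was lower, held 24 CpG and was 72.8% G and C. Over all 32851 promoters of the table the median was 6 CpG, with quartiles of 2 and 16. Among the other members Inhbb had 21 CpG, Tdgf1 7, Cer1 5 and Nodal 3. The FoxH1 core motif TGTNNATT, read on both strands, occurred in Tdgf1 only, at 2 places, and is in 10.9% of all promoters. The Smad palindrome GTCTAGAC occurred in none of the 6 and is in 0.167% of all promoters. The shorter Smad motif CAGAC, on both strands, occurred once each in Acvr2b, Tdgf1 and Cer1 and is in 42.2% of all promoters. None of these motifs contains another, and each match is a description of letters in this window.

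The rest of the pathway was described through 46 further genes with a single-symbol probe set, of which 42 were measured. Of the 42, 9 (21.4%) were higher and 2 (4.76%) lower in knockout cells by 2-fold or more, against 10.8% and 3.27% of all measured genes. The median log2 ratio was 0.42, against 0.12 for all measured genes. For 6 of the 42 (Acvr1c, Gdf11, Gsc, Inhbc, Lhx1 and Nog) the control was under the floor, which fixed their direction. Among the 36 above the floor on both arrays, 8 were higher and 2 lower, against 9.89% and 3.39% of all genes above it on both. After the array medians were made equal, 6 of 41 were higher and 2 lower, where 6.35% of all measured genes were higher and 7.49% lower.

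Of the 7 receptor and co-receptor genes 3 were higher by 2-fold or more and 0 lower (2 of 7 higher after equalizing the array medians). Of all measured genes 10.8% were higher and 3.27% lower (6.35% higher after equalizing the array medians). The type II TGF-beta receptor gene Tgfbr2 read 117.9 in control cells and 543.2 in knockout cells, a log2 ratio of 2.20. The co-receptor gene Tgfbr3, which encodes betaglycan and binds TGF-beta and inhibin, read 84.1 and 535.7, a log2 ratio of 2.67 that was 1.67 with the floor at the 60th percentile. A fainter Tgfbr3 probe set read 50.6, below the floor, and 160.9, for a log2 ratio of 1.39 on floored signals. Acvr1b, the type I receptor gene for activin and Nodal, read 742.4 and 1515, a log2 ratio of 1.03 that was under 2-fold in 5 of 10 alternatives, down to 0.53 as the mean over probe sets. Acvr2a, the other type II activin receptor gene, read 284.7 and 422.3 on its brighter probe set, a log2 ratio of 0.57, and 220.1 and 217 on the second. Read on the brightest probe sets, the log2 ratio of Acvr2a exceeded that of Acvr2b by 1.65, beside an SD of 0.49. The log2 ratio of Acvr1b exceeded that of Acvr2b by 2.11, beside 0.39. Other choices of probe set narrowed both gaps. The second probe set gave -0.02 for Acvr2a and -0.49 for Acvr2b. Averaging each gene's probe sets gave 0.53 for Acvr1b and -0.78 for Acvr2b. Cfc1, which encodes the Cripto-related co-receptor Cryptic, read 143.5 and 117.8.

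The intracellular transducers and their partners stayed within 2-fold, 7 of 7, with a median log2 ratio of 0.00. Of all 13794 measured genes, 11860 stayed within 2-fold. Smad2 read 1124 and 782.6, a log2 ratio of -0.52, with -0.06 on its other probe set. Smad3 had a log2 ratio of 0.08 and Smad4, the common partner, one of 0.27. Foxh1, the forkhead factor that carries Smad2 to Nodal target genes, read 911.3 and 912.2. Smad3, Smad4 and Foxh1 had negative log2 ratios after equalizing the array medians, at -0.23, -0.04 and -0.31. The convertase genes Furin and Pcsk6, whose products cleave the Nodal precursor, had log2 ratios of 0.47 and 0.09.

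**Figure D4:**
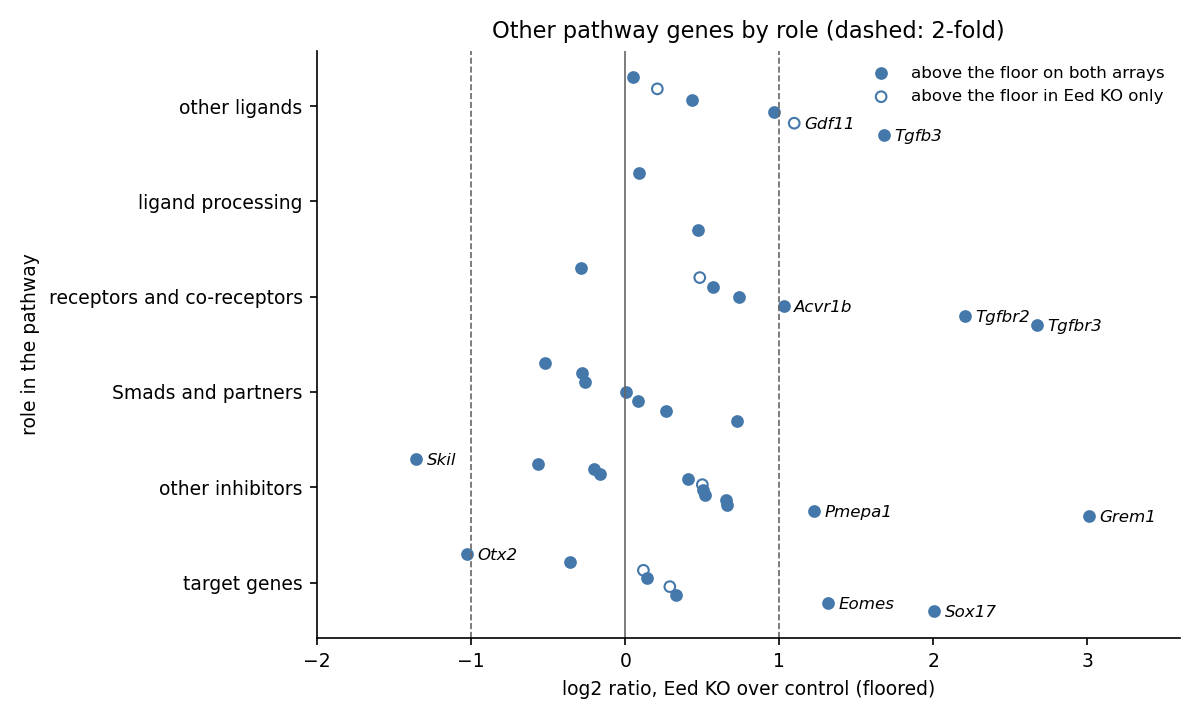
Log2 ratio of Eed KO over control (floored signals) for the 42 measured genes of the wider pathway list, by role, with open circles for genes above the floor in knockout cells only and 2-fold dashed. Genes past 2-fold are named: 3 receptor genes lie to the right, and all 7 Smads and partners lie between the dashed lines.

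The inhibitors and feedback genes went both ways. Skil, which encodes the Smad corepressor SnoN and is induced by the pathway, read 5229 and 2042 on its brighter probe set and 402.1 and 159.8 on the other. The log2 ratios were -1.36 and -1.33. Pmepa1, another feedback inhibitor induced by the pathway, read 641.1 and 1497, a log2 ratio of 1.22, with 1.22 and 0.69 on its other probe sets, and 0.92 after equalizing the array medians. Smad7, the inhibitory Smad, read 1527 and 2168, a log2 ratio of 0.51, and the follistatin-like gene Fstl3 139.6 and 219.9. Grem1, a secreted antagonist of BMPs rather than of Nodal, read 928.1 and 7465, a log2 ratio of 3.01.

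Of the target genes, 8 of 10 with a probe set were measured, and 2 were higher and 1 lower, against 10.8% and 3.27% of all measured genes. The T-box factor gene Eomes read 124.7 and 310.6, a log2 ratio of 1.32, with 0.94 on its other probe set, and was under 2-fold in 2 of 10 alternatives, down to 0.89 with the floor at the 60th percentile. Sox17, an endoderm factor gene, read 120.3 and 483.2, a log2 ratio of 2.01, with 1.10 on its other probe set, which lacks the suffix for shared probes. Otx2, an anterior epiblast factor gene, read 1425 and 698.7, a log2 ratio of -1.03 that was -0.97 with a pseudocount. Mixl1 and Fgf8 were under the floor on both arrays, and Gsc was above it in knockout cells only, at 66.5. Among the 6 measured ligand genes of the wider list, Tgfb3 read 67.1 and 214.7, a log2 ratio of 1.68 (0.35 if the floor was raised to the 60th percentile), and Gdf11 was under the floor in the control and read 131.1 in the Eed KO, which is 2.14-fold over the floor used here and was under 2-fold in 4 of 9 alternatives, down to a log2 ratio of 0.89 with the intensity trend removed.

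Both arrays carried the markers of ES cells: Pou5f1 read 12948 and 11352, Nanog 8007 and 14393 and Sox2 11826 and 8531. Of 10 listed ES cell markers 1 was higher by 2-fold or more and 0 lower. For comparison with this list and those below, 10.8% of all measured genes were higher and 3.27% lower. At the same array median, and with the mean over probe sets, 1 was higher and 1 lower. The shares of all measured genes were then 6.35% and 7.49%, and 9.49% and 2.75%. Utf1 read 10555 and 6466 on its brightest probe set and 966.1 and 326.1 on the next. Many markers of fibroblasts, endoderm and trophoblast were higher in knockout cells, as were Lefty2, Fst, Inhba, Tgfbr2 and Tgfbr3, but some markers were lower. Of 19 measured fibroblast markers of 20 listed, 15 were higher in knockout cells by 2-fold or more, and the summed signal of the list went from 26517 to 56031. Col1a1 went from 434.3 to 857.1, Col1a2 from 663.4 to 1782, Col3a1 from 148.6 to 395.6 and Thy1 from 331.5 to 1182. Of 17 measured markers of primitive and visceral endoderm, of 18 listed, 7 were higher and 1 lower, and the summed signal went from 12818 to 21617. Bright genes weigh most in such sums, here Sparc at 4654 and 9189 and Lamb1 at 2996 and 2649. Gata4 read 103.5 and 229.8, but 124.5 and 128.8 on its other probe set. Gata6 read 121.8 and 341.1, and the lower gene, Cubn, 517.3 and 198.9. Of 10 measured trophoblast markers of 12 listed, 5 were higher, and the summed signal went from 8964 to 16764. The keratin genes Krt18, at 3600 and 7151, and Krt8, at 2672 and 5690, weigh most in that sum. Cdx2 did not reach the floor at 43 and 47.8. Elf5 read 12.3, under the floor, and 79.6, which is 1.30-fold on floored signals. Ascl2 and Tfap2c had ratios below 1, Ascl2 at 343.1 and 186.8. Of 9 measured primitive streak and mesoderm markers of 12 listed, 2 were higher and 1 lower, 4 had ratios below 1, and the summed signal went from 990.1 to 1341. The median log2 ratio of that list, 0.12, was -0.29 with quantile normalization, -0.27 at the same array median and -0.28 with the intensity trend removed. At the same array median 11 fibroblast, 5 endoderm and 3 trophoblast markers were higher, and 1 endoderm and 1 trophoblast marker lower; on poly-A spikes 3 trophoblast markers were higher and 1 lower. With the floor at the 60th percentile 4 of 13 measured endoderm markers were higher, and 1 of 2 mesoderm markers. The part of these cell types in the members' ratios was not tested, and more cells of a type and more RNA per cell cannot be told apart in bulk RNA. The main Eed probe set read 10101 and 11456, and as the labels do not place the disrupted part, that signal checks nothing.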

How the data were processed

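Total RNA of 1 control and 1 Eed KO sample was labelled and hybridized to 1 array each, and groups were taken from the sample titles. The values were deposited as linear intensities, 1 for each probe set and array. Per the submitters' processing notes they were computed with MAS5; the version is not given in the sources used here. The trimmed mean, without the lowest and highest 2% of 45101 probe sets, was 500 on both arrays as deposited. Symbols came from the platform annotation (34945 probe sets with a single symbol). The probe set of highest mean log2 signal stood for a gene, and all probe sets of a member are given. Ratios are of signals floored at 61.3, and genes were called by size, at 2-fold, with no p-value. The SD between probe sets is the SD of the difference in log2 ratio between the 2 brightest probe sets of a gene, above the floor on both arrays, divided by the square root of 2, in bins of signal. Members, lists and tests were chosen with earlier results of these data known. Named were all members, the list genes past 2-fold, and a fixed set of receptors, Smads and inhibitors. The other settings were scaling by quantiles, by array medians, by a lowess curve (span 0.3) or on 18 hybridization or 24 poly-A spike probe sets, a floor at percentile 25 or 60, a pseudocount equal to the floor, the mean over probe sets, omission of _x_at and _s_at probe sets, and calls at 1.5- and 3-fold. Python 3.11.15, pandas 2.3.3 and statsmodels 0.14.6 were used.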

Additional observations from a re-analysis of the deposited data

How the results depend on the processing

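Lefty2, Fst and Inhba were at least 2-fold higher under all 10 settings that changed scaling, floor or probe sets. Their lowest log2 ratios were 1.71, 1.52 and 1.23, and at 3-fold Lefty2 and Fst were still called. Changing the floor or omitting _x_at and _s_at probe sets could not move these ratios. Nor could averaging over probe sets for Lefty2 and Inhba, each with 1 probe set above the floor. Stability was thus put to the test by the scalings and the pseudocount, and for Fst also by the average. The 2 lower members were less stable. Their count was 1 with quantile normalization or with the intensity trend removed (Acvr2b), 1 with a pseudocount (Gdf3), and 0 when probe sets were averaged or calls were made at 3-fold. Of all measured genes, 0.739% (3-fold) to 4.27% (quantile normalization) were lower under these settings. Why the scalings moved the count of lower members was not tested. Of the pathway list, 14 of 42 genes were higher at 1.5-fold, against 23.3% of all measured genes, and 5 at 3-fold, against 3.53%. The lower genes numbered 1 with a pseudocount and 0 at 3-fold, against 2.54% and 0.739%. Across the other settings the pathway count of higher genes lay between 6 and 12, and the share of all measured genes between 6.35% and 14.0%. No measured member that was called changed sign. Over all measured genes the median log2 ratio of 0.12 became 0.06 (hybridization spikes), -0.06 (poly-A spikes) and -0.16 (same median). Higher genes made up 76.7% of all calls as deposited, 64.6% with quantile normalization, 66.2% with the trend removed, 57.6% on poly-A spikes and 45.9% at the same median. Signals near the floor limit Cer1, the fainter Inhba probe set and the faintest Acvr2b probe set, for which no ratio is given.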

Other observations

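The genomic neighbours of the members that moved apart were looked up after the values were seen, as the order of protein-coding genes in the RefSeq gene table (GRCm38.p6). On the side of Lefty2 away from Lefty1, Sde2 read 2551 and 2030.5 (log2 ratio -0.33) and the histone gene H3f3a 205.9 and 209.5. Beyond Lefty1, Tmem63a read 252.9 and 232.9, and Ephx1, which encodes the microsomal epoxide hydrolase, 491.3 and 1424 (log2 ratio 1.54). Of the 5 measured genes among the 3 nearest on either outer side, Ephx1 was the one past 2-fold. Of all measured genes 10.8% were higher and 3.27% lower by 2-fold or more.

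Gdf3 lies in a cluster of genes active in pluripotent cells. Its next neighbour Dppa3, which encodes the maternal and germ cell factor Stella, read 2680 in control cells and 1346 in knockout cells, a log2 ratio of -0.99 beside -1.03 for Gdf3. Nanog, next in order, read 8007 and 14393 (log2 ratio 0.85), and the glucose transporter gene Slc2a3 read 18237 and 26447 (0.54). On the other side Apobec1 read 307 and 441.3 (0.52). Adjacent genes of this cluster had log2 ratios of both signs.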
